A study of Saccharomyces cerevisiae with 34 samples.

Results

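RNA-seq was used to follow 60 ribosome biogenesis genes of budding yeast, which encode nucleolar factors that process and assemble pre-ribosomal RNA. They were chosen by gene name, with earlier results of these data known, and all 60 were among the 6209 genes counted. The study overexpressed the centromeric histone CENP-A Cse4 in cells with and without Psh1, the ubiquitin ligase that targets it for proteolysis, and asked how transcription responded. It comprised 34 libraries from 17 cultures, each sampled before galactose (t0, 0 h) and after 2 h in galactose (t2), in 3 batches. All strains were W303 derivatives with a functional RAD5 gene and a bar1-1 allele, grown asynchronously in lactic acid medium. The 6 genotypes were WT, pGAL-H3, psh1Δ, htz1Δ (which lacks the histone variant H2A.Z), psh1Δ pGAL-3Flag-CSE4 and the same construct with PSH1 intact (pGAL-3Flag-CSE4). The pGAL constructs place an extra CSE4 or histone H3 copy under the galactose-inducible promoter, integrated at leu2 and trp1 respectively. By the sample labels the CSE4 construct carries the LEU2 marker and the H3 construct TRP1. The labels mark the psh1 deletion by KAN and the htz1 deletion by HYG. In the study's strain list WT has mutant leu2 and trp1 alleles, so the pGAL strains also differ from WT in these markers. There were n = 3 cultures per genotype, 1 per batch, except pGAL-3Flag-CSE4, which had n = 2, from batches 2 and 3. Galactose is therefore the common treatment of every strain, including the controls without a pGAL construct. For the psh1Δ pGAL-3Flag-CSE4 strain of batch 3, the sample labels and the study's strain list name different psh1 deletion markers.

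Yeast ribosomes are built in the nucleolus, where RNA polymerase I makes a long precursor that is cleaved, modified and folded. Box C/D and box H/ACA ribonucleoproteins modify it. The SSU processome, which holds the UtpA and UtpB subcomplexes, gathers on the nascent transcript and yields the 40S subunit, while helicases, GTPases and scaffold proteins mature the 60S subunit. The genes for these factors are known to be transcribed together in response to carbon source, growth rate and stress, and many carry a pair of promoter elements named PAC and RRPE.

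The 34 libraries held between 5258139 and 6836827 counts, with a median of 5852828. Each member had at least 113 counts in every library, so depth did not limit detection of any of them. PSH1 had at most 3 counts in the 12 libraries of psh1Δ strains and at least 165 in the others, and HTZ1 at most 2 in the 6 htz1Δ libraries and at least 556 in the others. CSE4 reached 63081 to 108727 counts in the 5 induced pGAL-3Flag-CSE4 libraries and at most 332 elsewhere. HHT1, the H3 gene of the construct, reached 25526 to 28004 counts in the 3 induced pGAL-H3 libraries and at most 5676 elsewhere. In the batch 1 libraries of psh1Δ and psh1Δ pGAL-3Flag-CSE4, genes of chromosome I stood apart, with a median 0.80 to 0.95 on the log2 scale above the median of all libraries of that time. Their levels in the other 30 libraries lay between -0.12 and 0.03 of it. MAK16, a 60S assembly factor, is the only member on chromosome I.

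The promoters of the members were searched for PAC and RRPE, which are already known from such genes. The choice by name used no sequence. The PAC core, GATGAG, was found on either strand within 250 bases upstream of the start codon in 57 of 60 members (95%), against 937 of all 5693 promoters of that length (16.5%). The RRPE core, AAAATTTT, which reads the same on both strands, was found in 49 members (81.7%) and in 8.87% of all promoters. As spelled, the cores cannot share bases with each other. Both cores were present in 47 members (78.3%) and in 241 of all promoters (4.23%), a count that includes the members. UTP22, which encodes an SSU processome protein, was the only member with neither. The 96 PAC matches lay a median of 114.5 bases from the start codon, and the 62 RRPE matches a median of 132 bases. Of the 47 members with both, RRPE lay farther from the start codon in 35, and in 40 the nearest pair with its flanks fitted in 50 bases or fewer. The longer form GCGATGAG, which contains the PAC core, was found on either strand in 33 members and 228 of all promoters. A match describes the letters only and does not show that a factor binds.

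The stretches below are those of members with both cores whose values per library are given or that are named throughout, and show where the cores sit. They include the longest stretch of the 47, the 127 bases of RRP15. Each is read 5′ to 3′ on the gene's own strand from the R64 (sacCer3) reference of RefSeq, upstream of the start codon, with 8 bases on either side of the pair. Capitals mark bases of either core, also where a further match runs past the end of the stretch.
NOP1 (chrIV:427131-427173, plus strand): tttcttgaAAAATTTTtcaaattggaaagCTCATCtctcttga
CBF5 (chrXII:505982-506016, plus strand): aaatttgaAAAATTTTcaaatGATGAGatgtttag
UTP10 (chrX:217396-217433, minus strand): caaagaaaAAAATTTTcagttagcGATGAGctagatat
PWP2 (chrIII:223359-223390, minus strand): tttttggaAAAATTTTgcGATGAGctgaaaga
RRP5 (chrXIII:731266-731297, minus strand): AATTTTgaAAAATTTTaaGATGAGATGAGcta
NSR1 (chrVII:807813-807851, minus strand): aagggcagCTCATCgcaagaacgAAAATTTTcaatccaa
NOP7 (chrVII:695268-695301, plus strand): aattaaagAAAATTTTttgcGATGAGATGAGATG
NOG1 (chrXVI:370827-370863, plus strand): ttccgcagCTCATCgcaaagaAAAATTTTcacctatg
DBP2 (chrXIV:413476-413509, plus strand): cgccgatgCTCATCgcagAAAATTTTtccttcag
DBP8 (chrVIII:442025-442057, plus strand): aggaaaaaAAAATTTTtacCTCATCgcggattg
ENP1 (chrII:714562-714599, minus strand): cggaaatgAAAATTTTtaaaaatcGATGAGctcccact
ENP2 (chrVII:781654-781691, plus strand): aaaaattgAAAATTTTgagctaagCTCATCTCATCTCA
UTP21 (chrXII:937331-937374, minus strand): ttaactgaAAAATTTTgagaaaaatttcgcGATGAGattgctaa
BFR2 (chrIV:1059493-1059531, plus strand): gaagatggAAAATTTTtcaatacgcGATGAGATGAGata
MAK16 (chrI:101256-101287, minus strand): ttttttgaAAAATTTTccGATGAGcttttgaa
RRP15 (chrXVI:818093-818219, plus strand): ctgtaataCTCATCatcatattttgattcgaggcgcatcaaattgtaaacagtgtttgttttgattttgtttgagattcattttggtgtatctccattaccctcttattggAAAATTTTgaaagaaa
In NSR1, NOG1, DBP2 and RRP15 the PAC core lies farther from the gene than RRPE, while in the others shown RRPE lies farther. In NOP1, NSR1, NOG1, DBP2, DBP8, ENP2 and RRP15 the PAC core is on the opposite strand and reads CTCATC.

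**Figure D1:**
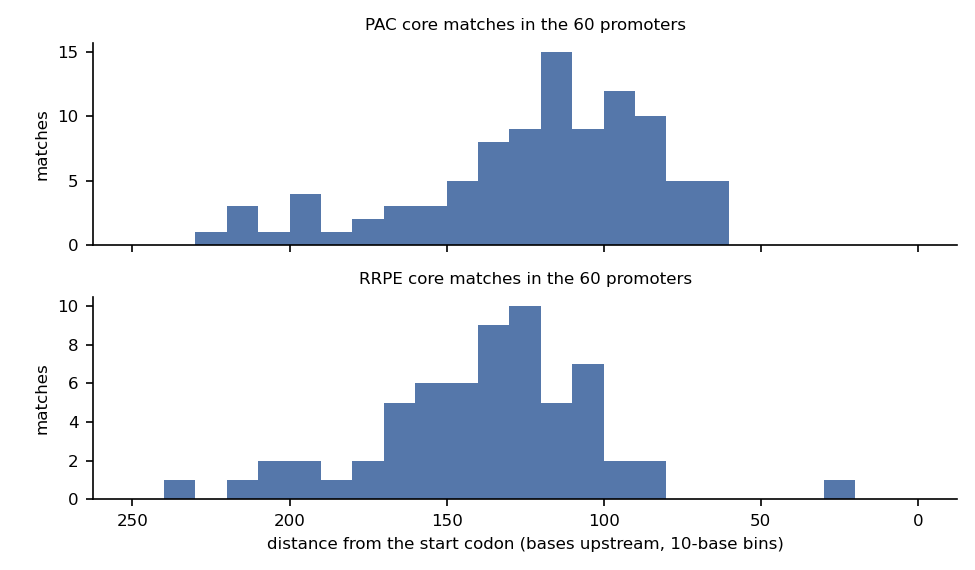
Distance of each PAC core match (upper panel, 96 matches) and RRPE core match (lower panel, 62 matches) from the start codon of its gene, in 10-base bins over the 250 bases upstream of the 60 members. The PAC matches run from 62 to 223 bases and the RRPE matches from 25 to 239 bases, with medians of 114.5 and 132 bases.

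The members differed widely in abundance before galactose. In WT at t0 the median member stood at 55.4 CPM (counts scaled to library size) per kilobase of gene span, introns included, and the median of all genes at 40.9. NOP1, which encodes fibrillarin, the methyltransferase of box C/D ribonucleoproteins, was the highest at 721 ± 160 CPM per kilobase (SD, n = 3). The box H/ACA proteins followed, with NOP10 at 443 ± 60.3, GAR1 at 360 ± 62.0 and NHP2 at 318 ± 37.6 CPM per kilobase. CBF5, the pseudouridine synthase of that particle, stood at 285 ± 59.2 and NSR1, which encodes a nucleolin-like protein, at 293 ± 33.6 CPM per kilobase, and these neighbours lay within each other's spread. The lowest was UTP20, a very long SSU processome gene, at 17.7 ± 2.1 CPM per kilobase, next to UTP10 of UtpA at 29.3 ± 4.13. The 4 box H/ACA genes and the box C/D genes NOP1, NOP56 and NOP58 were all among the 8 highest, whereas RRP9, whose protein is specific to U3, stood at 49.9 ± 7.21 CPM per kilobase. Of the genes named here, NSR1, RRP9, NOP56 and NOP58 overlap another annotated gene, over 584, 479, 326 and 254 bases. The part of these overlaps in their levels was not tested. The order is a description, and longer genes were not tested against shorter ones.

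The 60 genes were then compared before and after galactose, as all strains received it. Summed over the members, the level in WT was 8536, 8104 and 10233 CPM at t0 in batches 1, 2 and 3, and 12651, 11067 and 13358 CPM at t2. With normalization by trimmed mean of M-values (TMM), the summed level was higher at t2 in 17 of 17 cultures, by a factor of 1.07 to 1.97, but with scaling to the total count alone it was higher in 16, and in batch 1 of psh1Δ pGAL-3Flag-CSE4 the factor was 0.859. Without TMM the log2 changes of that genotype shifted by -0.31, -0.20 and -0.21 in batches 1, 2 and 3, and those of the other cultures by -0.13 to 0.02. Across all strains it ran from 6507 to 10233 CPM at t0 and from 9356 to 13942 CPM at t2, so the ranges overlapped, through high t0 levels in batch 3 and the low t2 level of batch 1 of psh1Δ pGAL-3Flag-CSE4. In bulk samples more RNA per cell and more cells expressing a gene cannot be told apart, and every level is relative to the rest of its library.

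**Figure D2:**
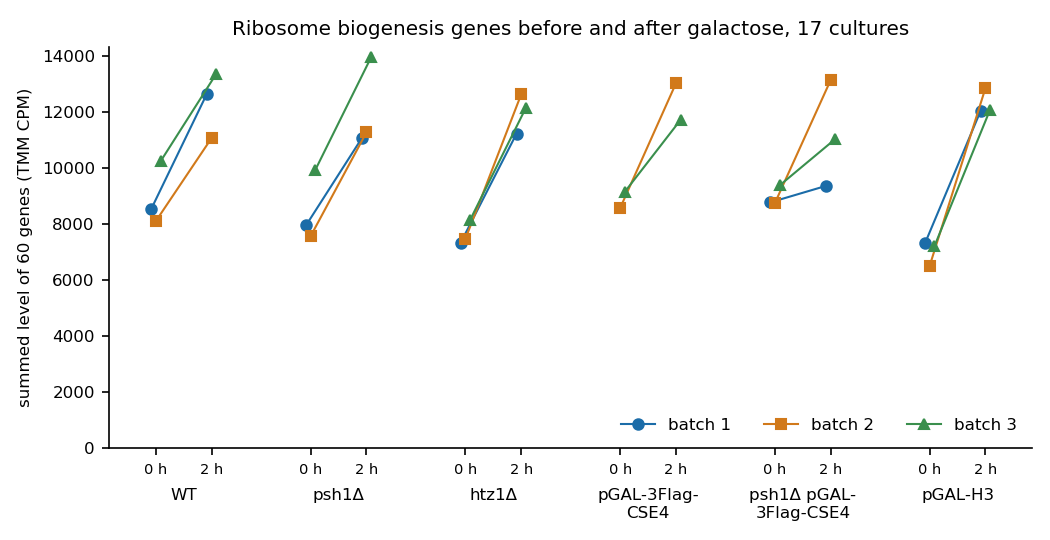
Summed TMM-normalized CPM of the 60 members (y axis) in each library before (0 h) and after 2 h of galactose, by genotype, with a line joining the samples of 1 culture and the marker giving the batch. Every line rises on this TMM scale, from 7313, 6507 and 7196 CPM to 12047, 12845 and 12075 CPM in pGAL-H3, and least in batch 1 of psh1Δ pGAL-3Flag-CSE4, from 8768 to 9356 CPM.

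Within single cultures most members were higher at t2. Of the 1020 pairs of a member and a culture, 985 were higher at t2 (96.6%), against 49.8% of pairs over the 5244 genes with a mean above 10 CPM. Of the 35 pairs that were not, 23 came from batch 1 of psh1Δ pGAL-3Flag-CSE4. The median member change per culture ran from 0.05 to 0.93 on the log2 scale (pseudocount 0.5 CPM), with a median of 0.55. In all 17 cultures 32 members (53.3%) were higher at t2, as were 367 of the 5244 genes (7.00%).

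In WT alone, edgeR's quasi-likelihood test called 3 members higher at t2 and 0 lower (also 0 lower at an unadjusted p under 0.05 and by DESeq2), where a call needed a Benjamini-Hochberg adjusted p under 0.05 and a change of at least 1.5-fold. Of all genes, 1.13% were called higher and 1.87% lower. The member median was 0.41 against -0.01 for all genes, and each of the 60 fitted changes was positive, between 0.21 and 0.86. At the adjusted p alone 16 members passed, against 2.61% of all genes. In 48 members the 3 t2 libraries all lay above the 3 t0 libraries, as did 13.7% of all genes. DBP2, a DEAD-box helicase that acts in rRNA and messenger RNA metabolism, stood at 231, 202 and 291 CPM at t0 and at 444, 385 and 495 CPM at t2, without overlap. Its log2 change was 0.86 ± 0.15 (SE, adjusted p = 0.027). ENP1, needed for 40S maturation, went from 90.1, 82.9 and 96.7 CPM to 149, 128 and 164 CPM, again without overlap (log2 change 0.70 ± 0.11, adjusted p = 0.024). DBP8, a helicase of the SSU processome, went from 40.1, 38.3 and 53.1 CPM to 66.0, 63.7 and 82.9 CPM (log2 change 0.69 ± 0.15, adjusted p = 0.036). All 3 were higher in every batch. The count depended on the libraries used: it was 0 without batch 1 or without batch 2, and 10 without batch 3 (2.19% of all genes called higher), and with the batch as a block NOP1 joined the 3 others, giving 4 (1.51% of all genes).

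Of the 8 genes followed in every comparison, none reached a call in WT. NOP1 changed from 637, 602 and 890 CPM to 1104, 982 and 1277 CPM, a log2 change of 0.65 ± 0.17 (adjusted p = 0.055). NSR1 changed from 328, 355 and 410 CPM to 518, 501 and 629 CPM, with a log2 change of 0.58 ± 0.13 (adjusted p = 0.038) that was just under the fold limit. NSR1 overlaps the opposite-strand reading frame YGR160W, whose reads cannot be separated from its own in an unstranded library. The values were 0.51 for PWP2, the UtpB scaffold, and 0.50 for NOG1, a 60S GTPase, both with an adjusted p of 0.040 or less. They were 0.49 for CBF5, 0.46 for NOP7 (a 60S scaffold), 0.38 for UTP10 and 0.30 for RRP5, which acts in both subunits, with adjusted p of 0.071 or more.

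Fitted over all 6 genotypes, with genotype as a term, 18 members were called higher at t2 and 0 lower (also 0 lower at an unadjusted p under 0.05 and by DESeq2), against 3.08% of all genes called higher and 3.75% lower. All 60 passed the adjusted p, as did 26.8% of all genes in that direction. The member median was 0.51, with a range of 0.28 to 1.03, and the median of all genes was -0.00. The fit had no term for culture, although t0 and t2 were paired within cultures. DBP2 led with a log2 change of 1.03 ± 0.08 (SE, adjusted p = 5.1e-12) and was higher in 17 of 17 cultures, by 0.56 to 1.66. Over 15 alternative fits, which included a block by culture, its change ran from 0.94 to 1.10. DBP2 was followed by DBP8 at 0.75 ± 0.07 (adjusted p = 5.6e-10), NSR1 at 0.74 ± 0.08 (2.9e-09), UTP18 of UtpB at 0.70 ± 0.07 (1.7e-09), ENP1 at 0.69 ± 0.06 (3.2e-10) and NOP1 at 0.68 ± 0.08 (4.8e-08). Of the other genes named throughout, NOG1 at 0.62 ± 0.06 and NOP7 at 0.59 ± 0.07 were called. PWP2 at 0.56, CBF5 at 0.47, UTP10 at 0.43 and RRP5 at 0.40 passed the adjusted p and missed the fold limit. In fits chosen after the data were seen, the count without pGAL-H3 was 6 (DBP2, DBP8, NSR1, ENP1, NOP1 and ENP2), against 2.74% of all genes, and without any other genotype it was 16 to 23. Without batch 2 it was 10, against 2.48% of all genes.

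By role, the 3 genes of the Nop7-Erb1-Ytm1 complex, which acts in early 60S assembly, were all called, at 0.65 for ERB1, 0.64 for YTM1 and 0.59 for NOP7. Of the 7 UtpA genes 2 were called (UTP9 at 0.65 and UTP8 at 0.59), and the group median was 0.57. Of the 4 UtpB genes 1 was called, with a median of 0.54, and UTP13 at 0.36 was the lowest of them. The 4 U3 and box C/D genes had a median of 0.53 and 1 call, NOP1. The 4 box H/ACA genes had the lowest median of the 10 roles, 0.38, and 0 calls although all 4 had an unadjusted p under 0.05, with NOP10 at 0.32. Of the 11 other SSU processome and 40S genes 4 were called (DBP8, ENP1, ENP2 and LCP5), and this group also held the smallest change, UTP22 at 0.28 ± 0.07. Of the 6 DEAD-box helicases of the 60S subunit only DBP2 was called, and DBP3 was lowest at 0.35. Of the 3 GTPases 1 was called, NOG1. The 4 factors that act in both subunits, counted with Nsr1, held 2 calls, NSR1 and RRP12. Of the 14 other 60S factors and rRNA methylases 3 were called (SSF1 at 0.66, PWP1 at 0.63 and MAK16 at 0.62). Of all genes, 3.08% were called higher in this fit. UTP15 of UtpA at 0.58 missed the fold limit, which UTP8 and NOP7 at 0.59 just passed. None of the UtpA or Nop7-Erb1-Ytm1 genes was called in the fit without pGAL-H3. The difference between roles was not tested.

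**Figure D3:**
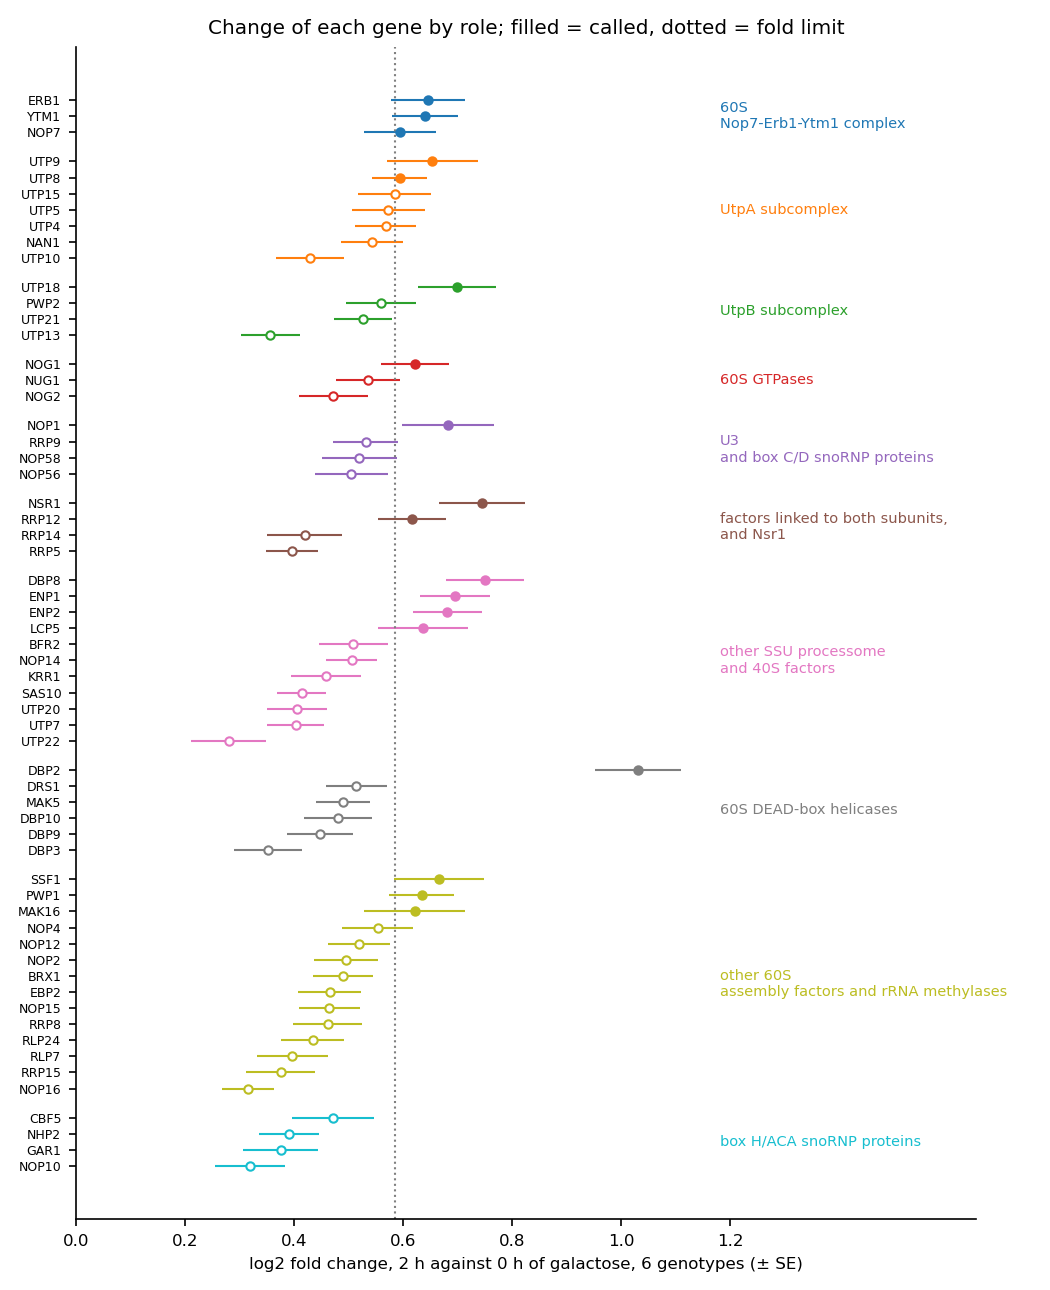
Log2 fold change from 0 h to 2 h of galactose over 6 genotypes (x axis, points, with the SE as bars) for each of the 60 members, grouped by role. Filled points are the 18 called members and the dotted line is the 1.5-fold limit. DBP2 at 1.03 lies apart to the right and the 4 box H/ACA genes lie between 0.32 and 0.47.

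Other genes of the pathway were read from lists set beside the members. Of 49 further ribosome assembly factors 12 were called higher over all genotypes, with a median of 0.48. Of 16 RNA polymerase I subunits and initiation factors 3 were called higher, with a median of 0.48. None of the 132 cytosolic ribosomal protein genes was called by edgeR in WT or over all genotypes, where 46 and 127 had a positive change at an unadjusted p under 0.05, and their medians were 0.29 and 0.27. In the all-genotype fit 121 of them passed the adjusted p in the upward direction and 1 in the downward direction. Of all 6209 genes, 714 in WT and 1819 over all genotypes were higher at the unadjusted p, and 1859 lower over all genotypes. In WT 6 of the 49 assembly factors, with a median of 0.40, and 2 of the 16 polymerase I genes, with a median of 0.31, were called higher. Of all genes, 1.13% were called higher in WT and 3.08% over all genotypes. All 6 galactose genes were called higher in both fits, with a median of 8.56 in WT. None of the 9 regulators of ribosome genes was called by edgeR in either fit, with 3 higher at an unadjusted p under 0.05 in WT and 5 higher and 2 lower over all genotypes.

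The promoter cores were also read against this change. The 47 members with both cores had a median log2 change of 0.50 and the 10 with PAC alone 0.54. The 2 members with RRPE alone had a median of 0.58. UTP22, the only member without either, had the smallest fitted change, 0.28. It rose by 0.61, 0.33 and 0.06 in WT batches 1, 2 and 3, and fell in all 3 cultures of psh1Δ pGAL-3Flag-CSE4. By the median over the 17 cultures NOP16 at 0.29, NOP10 at 0.30 and RRP14 at 0.31 lay below UTP22 at 0.33. NOP16 and NOP10 have PAC alone, and RRP14 has both cores. Outside the members, the 194 other genes with both cores had a median change of 0.35, and 30 were called higher (15.5%). The 686 other genes with PAC alone had a median of 0.04 (3.64% called higher), the 262 with RRPE alone 0.14 (2.29%) and the 4491 with neither -0.03 (2.00%). These are descriptions without a test, and the other genes with both cores were not separated from further ribosome assembly factors.

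**Figure D4:**
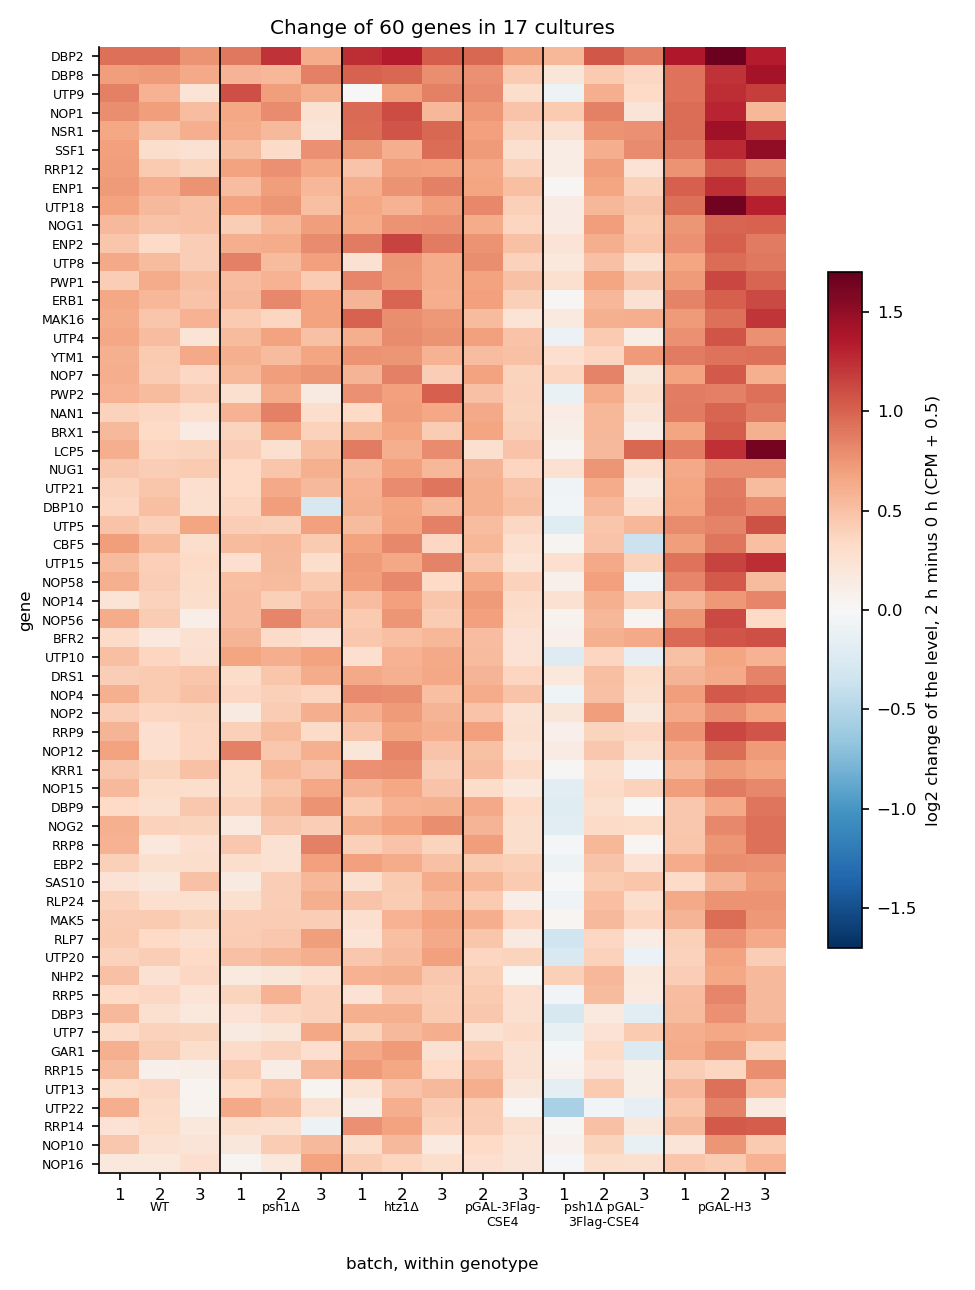
Log2 change of the level from 0 h to 2 h of galactose (colour, CPM with a pseudocount of 0.5) of the 60 members (rows, ordered by their median) in 17 cultures (columns, by genotype and batch). Of the 1020 cells 985 are above 0, and 23 of the 35 others lie in batch 1 of psh1Δ pGAL-3Flag-CSE4.

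The htz1Δ strain was compared with WT at each time. Before galactose the htz1Δ cultures had summed levels of 7336, 7468 and 8139 CPM, against 8104 to 10233 CPM in WT, so that only the batch 3 library reached the WT range. Relative to WT 6 members were called lower and 0 higher (1 at an unadjusted p under 0.05, 0 by DESeq2), where 2.32% of all genes were called lower and 0.66% higher. At that unadjusted p 645 of the 6209 genes were higher. The member median was -0.23 against 0.01 for all genes, and 55 of 60 fitted differences were negative. In 28 members all htz1Δ libraries lay below all WT libraries, against 15.4% of all genes. ENP2, which acts in the SSU processome, stood at 77.0, 66.5 and 82.3 CPM in WT and at 39.8, 38.7 and 45.1 CPM in htz1Δ, without overlap (log2 difference -0.86 ± 0.11, adjusted p = 0.011). RRP15, a 60S factor, stood at 29.2, 31.7 and 39.2 CPM in WT and at 16.2, 22.3 and 22.0 CPM in htz1Δ (-0.72 ± 0.17, adjusted p = 0.048), and it overlaps the opposite-strand reading frame YPR142C. NSR1 stood at 221, 231 and 232 CPM in htz1Δ, below the 328 CPM or more of WT (-0.67 ± 0.11, adjusted p = 0.022). UTP21 of UtpB stood at 131, 120 and 144 CPM in WT and at 88.8, 85.6 and 72.9 CPM in htz1Δ (-0.67 ± 0.11, adjusted p = 0.022). SSF1, a 60S factor with a closely related copy elsewhere in the genome, had a difference of -0.66 ± 0.15 (adjusted p = 0.049) and UTP15 of UtpA one of -0.62 ± 0.13 (adjusted p = 0.040). All 6 were lower in 3 of 3 batches.

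The other named genes at t0 differed less, with PWP2 at -0.48 ± 0.12 (adjusted p = 0.057), NOG1 at -0.26, UTP10 at -0.21, RRP5 at -0.20, NOP1 at -0.16, NOP7 at -0.12 and CBF5 at -0.00. The 4 box H/ACA genes had a median of 0.04, and NOP10 was the highest member at 0.43 ± 0.14 (adjusted p = 0.11), with 102, 90.7 and 121 CPM in htz1Δ against 72.2, 72.3 and 90.7 CPM in WT. The median difference was -0.22, -0.12 and -0.36 in batches 1, 2 and 3. The count of 6 fell to 0 without batch 1 or without batch 2 and to 3 without batch 3, where 2.82% of all genes were called lower. Of the 49 further assembly factors 5 were called lower at t0 and 45 had a negative difference, and of the 16 polymerase I genes 2 were called lower and 12 had a negative difference.

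After galactose edgeR's test and DESeq2 each called 0 members in htz1Δ, where 4 were higher and 11 lower at an unadjusted p under 0.05, and 3.93% of all genes were called lower and 2.61% higher. At that unadjusted p 923 of the 6209 genes were higher and 979 lower. The member median was -0.06, and 8 members passed the adjusted p alone, 7 lower and 1 higher. These are shares of 7.36% higher and 8.49% lower among all genes at that rule. NOP10 was again the highest, at 0.43 ± 0.09 (adjusted p = 0.011), and UTP9 the lowest, at -0.57 ± 0.13 (adjusted p = 0.014). UTP21, UTP15 and SSF1, called at t0, passed the adjusted p at t2 with -0.30, -0.31 and -0.31, whereas ENP2 at -0.31, RRP15 at -0.39 and NSR1 at -0.27 did not. The other genes named throughout lay between -0.17 for PWP2 and 0.09 for CBF5, with an adjusted p of 0.22 or more. Batch 2 departed from the others at t2, with a median of 0.20 against -0.18 in batches 1 and 3. Without it 2 members, UTP9 and RRP15, were called lower, against 3.56% of all genes. Compared with WT, the galactose change was larger by a median of 0.17, with ENP2 at 0.55 ± 0.17 (adjusted p = 0.99) and the genes named throughout between 0.06 for RRP5 and 0.40 for NSR1. This difference in change was fitted on the same libraries as the comparisons at t0 and t2. Within batches 1, 2 and 3 its median was 0.06, 0.29 and 0.22, with 21, 0 and 4 members below 0. In that comparison edgeR called 0% of the 6209 genes, 3 members were higher at an unadjusted p under 0.05, and DESeq2 called 0 members. Among all genes 137 were higher at that unadjusted p.

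**Figure D5:**
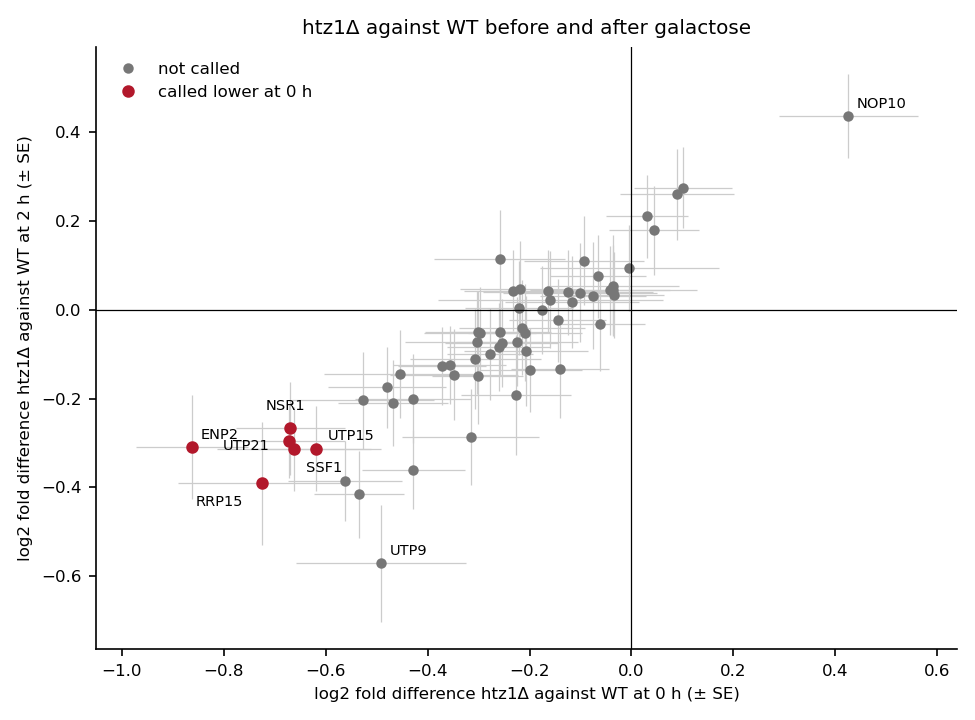
Log2 difference of htz1Δ against WT for each member at 0 h (x axis) and at 2 h (y axis), with SE bars. Red points are the 6 members called lower at 0 h, all of which lie below 0 on both axes, and NOP10 lies at 0.43 on both.

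The pGAL-H3 strain also differed before its construct was induced. Its summed level at t0 was 7313, 6507 and 7196 CPM, below all 3 WT libraries, and at t2 it was 12047, 12845 and 12075 CPM, inside the WT range. At t0 all 60 fitted differences from WT were negative, with a median of -0.35, but 0 were called by edgeR's quasi-likelihood test (44 at an unadjusted p under 0.05), where 0% of all genes were called lower and 0.0161% higher. At that unadjusted p 350 of the 6209 genes were lower. In 43 members the 3 pGAL-H3 libraries lay below the 3 WT libraries, against 8.36% of all genes. With the batch as a block 9 members were called lower, where 0.741% of all genes were, and DESeq2 called 11 lower, where 0.734% of the 5725 genes with an adjusted p were. This direct comparison and the one at t2 were added after the data were seen. BFR2, an SSU processome gene, stood at 80.6, 87.1 and 93.8 CPM in WT and at 50.2, 47.6 and 43.0 CPM in pGAL-H3 (-0.89 ± 0.09, adjusted p = 0.059). SSF1 stood at 56.8, 66.5 and 78.8 CPM in WT and at 45.5, 35.1 and 27.1 CPM in pGAL-H3 (-0.90 ± 0.20, adjusted p = 0.20). NSR1 had a difference of -0.70 ± 0.12 (adjusted p = 0.15), and the other genes named throughout lay between -0.12 for UTP10 and -0.42 for NOG1.

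At t2 the pGAL-H3 differences from WT had a median of -0.02, from -0.21 to 0.13, with 0 calls by edgeR or DESeq2 and 0 at an unadjusted p under 0.05, against 0.0161% of all genes called lower and 0.0322% called higher. The genes named throughout lay between -0.10 for NSR1 and 0.09 for RRP5. The galactose change itself, fitted on the same WT and pGAL-H3 libraries as both comparisons above, was larger than in WT for all 60 members, by a median of 0.38. By edgeR 0 members were called, against 0.0161% of all genes called higher. At an unadjusted p under 0.05, 36 members were higher, as were 266 of the 6209 genes. The largest were SSF1 at 0.80 ± 0.22 (adjusted p = 0.46), BFR2 at 0.80 ± 0.12 (adjusted p = 0.065) and LCP5 at 0.79 ± 0.22 (adjusted p = 0.46). Of the genes named throughout, NSR1 had the largest difference in change, at 0.62, and UTP10 the smallest, at 0.21. DESeq2 called BFR2 alone, where 0.168% of the 4763 genes with an adjusted p were called higher. The ribosomal protein genes had a median of -0.02 in the same comparison and the further assembly factors 0.34. The stress response list had a median of -0.36, and its 18 genes all lay below 0. In batches 1, 2 and 3 the member median of the difference was 0.18, 0.50 and 0.46. The part of the stress genes in this result was not tested.

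In psh1Δ 0 members were called at either time, by edgeR or DESeq2, and 0 passed an unadjusted p under 0.05. At t0 the median difference from WT was -0.10, and at t2 it was -0.00. Among all genes 0.0161% were called lower at each time, and 0% higher. At t0 the genes named throughout lay between -0.23 for UTP10 and 0.03 for NOP1, and at t2 between -0.22 for NSR1 and 0.12 for NOP7. MAK16 was the highest member at both times, at 0.43 ± 0.19 and 0.37 ± 0.20. It stood at 162 CPM at t0 in batch 1, the culture with the high chromosome I levels, and at 98.4 and 123 CPM in batches 2 and 3, against 86.7, 90.0 and 110 CPM in WT. Its difference within batches 1, 2 and 3 was 0.90, 0.13 and 0.16, and the part of chromosome I in it was not tested.

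Overexpression of CENP-A Cse4 in the presence of Psh1 was tested as a difference in change from WT. The pGAL-3Flag-CSE4 cultures rose from 8569 and 9146 CPM to 13014 and 11712 CPM, and the difference in change from WT had a median of 0.02, ranging from -0.18 to 0.23. By edgeR and by DESeq2 0 members were called, and 0 passed an unadjusted p under 0.05, against 0.0161% of all genes called higher. The named genes lay between -0.07 for CBF5 and 0.07 for NOP7, with SE of 0.16 to 0.24, which does not show that the strains respond alike. In batch 2 the median difference was 0.16 and in batch 3 -0.03, and without the batch 2 libraries the fitted median was -0.13.

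When Psh1 was also absent the cultures differed from each other. The psh1Δ pGAL-3Flag-CSE4 cultures went from 8768, 8747 and 9373 CPM to 9356, 13133 and 11031 CPM. The median member change was 0.05, 0.54 and 0.27 in batches 1, 2 and 3, against 0.35 to 0.55 in WT. Relative to WT the change had a median of -0.15 and 53 of 60 members were below 0, but 0 were called by edgeR or DESeq2 (2 lower at an unadjusted p under 0.05), where 0.161% of all genes were called higher and 0.177% lower. At that unadjusted p 545 of the 6209 genes were lower. Within batches 1, 2 and 3 the median difference was -0.47, 0.12 and -0.07, and without the batch 1 libraries the fitted median was 0.03. The 18 genes of the stress list had a median difference of 0.75, and a median change of 1.57, 0.19 and 1.31 in the 3 cultures, against -0.48 to 0.53 in the 14 other cultures. The cultures with the smaller member change, batches 1 and 3, were those with the large stress change, and the part of one in the other was not tested. At t2 CSE4 stood at 108727, 68412 and 74641 counts in batches 1, 2 and 3, and batch 1 also held the high chromosome I levels. The part of these in the member change was not tested either.

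Among the members UTP22 departed most. In WT it went from 152, 141 and 186 CPM to 232, 177 and 194 CPM, whereas in psh1Δ pGAL-3Flag-CSE4 it went from 180, 150 and 148 CPM to 122, 145 and 134 CPM. It was thus lower at t2 in 3 of 3 cultures of this genotype and in none of the 14 others. The difference in change was -0.61 ± 0.19 against WT (adjusted p = 0.13) and -0.76 ± 0.18 against psh1Δ (adjusted p = 0.075), neither of which was called. CBF5 had -0.46 against WT and -0.47 against psh1Δ, and UTP10 -0.40 and -0.66 ± 0.19 (adjusted p = 0.11), while NSR1 had 0.01 and 0.17. PWP2, RRP5, NOP1, NOG1 and NOP7 lay between -0.24 and -0.01 against WT and between -0.22 and -0.05 against psh1Δ. Against psh1Δ the member median was -0.22 and 0 were called by edgeR (7 lower at an unadjusted p under 0.05), with 0.129% of all genes called higher and 0.322% lower, while DESeq2 and the fit of all 34 libraries each called UTP22 and UTP10 lower, where 1.53% of the 5965 genes with an adjusted p and 2.21% of all genes were called lower. By edgeR 515 of the 6209 genes were lower at an unadjusted p under 0.05.

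Direct comparisons with WT at each time were added after the data were seen. At t0 0 members were called by edgeR or DESeq2 and 0 passed an unadjusted p under 0.05, and the median was -0.03, with 0.0161% of all genes called higher and 0.113% lower. The genes named throughout lay between -0.08 for RRP5 and 0.10 for NOP1. All members ran from -0.13 to 0.45, and within batch 1, the culture with the high chromosome I levels, from -0.24 to 1.14. At t2 UTP22 was called lower (-0.60 ± 0.12, adjusted p = 0.015, lower in 3 of 3 batches), where 3.12% of all genes were called lower and 4.7% higher. The t2 levels of UTP22 in psh1Δ pGAL-3Flag-CSE4 all lay below those of WT. DBP3, DBP8 and UTP4 passed the adjusted p alone, at -0.56, -0.41 and -0.42, as did 6.62% of all genes in that direction. The genes named throughout lay between -0.40 for CBF5 (adjusted p = 0.096) and 0.05 for NSR1. The member median was -0.17, and it was -0.44, 0.21 and -0.27 within batches 1, 2 and 3. The call of UTP22 was lost without batch 1, without batch 3 and with the batch as a block, and without batch 2 there were 8 calls, against 4.8% of all genes called lower.

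The batches themselves were compared, with genotype as a term. At t0 batch 3 exceeded batches 1 and 2 by a median of 0.08, and 0 members were called by edgeR or DESeq2 (18 higher and 1 lower at an unadjusted p under 0.05), where 2.24% of all genes were called higher and 3.12% lower. At that unadjusted p 1330 of the 6209 genes were higher and 1504 lower. At the adjusted p alone 16 members were higher and 1, SAS10, lower, against 18.1% and 19.7% of all genes. NOP1 led at 0.52 ± 0.06 (adjusted p = 3.0e-06), followed by CBF5 at 0.38, GAR1 at 0.36, NOP58 at 0.35 and NOP56 at 0.28, and NOP7 passed as well, at 0.27 (adjusted p = 0.00043). All 4 box H/ACA genes and 3 of the 4 box C/D genes passed in this direction, while UTP10 at 0.03, NOG1 at 0.05, RRP5 at 0.06, PWP2 at 0.08 and NSR1 at 0.17 did not. The ribosomal protein genes had a median of 0.38. NOP1 in batch 3 stood between 730 and 988 CPM over the 6 genotypes at t0, and in batches 1 and 2 between 484 and 721 CPM, without overlap. At t2 0 members were called by edgeR or DESeq2 (8 higher at an unadjusted p under 0.05), the median was 0.06, and the genes named throughout lay between -0.02 for UTP10 and 0.13 for NSR1. Among the 6209 genes 593 were higher at that unadjusted p. The change from t0 to t2 differed between batches by a median of -0.05, with NOP1 at -0.41 ± 0.10 (adjusted p = 0.0062) and CBF5 at -0.34 ± 0.12 (adjusted p = 0.046), neither at the fold limit. The 6 others named throughout lay between -0.21 for NOP7 and 0.03 for NOG1. At the adjusted p alone these and SAS10, which was higher, were the 3 members that passed, against 9.65% of all genes higher and 9.57% lower. By edgeR and DESeq2 0 members were called (1 higher and 6 lower at an unadjusted p under 0.05). Among the 6209 genes 956 were higher and 987 lower at that unadjusted p. Among all genes 3.04% were called higher and 2.16% lower in that comparison, and 0.113% higher and 0.0966% lower at t2.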

How the data were processed

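RNA was sequenced as single 50-base reads from libraries that do not mark strand. The authors aligned reads with TopHat to the sacCer3 genome and deposited raw counts per gene, made with HTSeq 0.6.1. The 34 raw count columns were used. The 64 deposited columns of normalized CPM, and the authors' own comparison columns (fold changes, p-values, FDR and calls), were not used. Groups, times and batches came from the sample labels, which describe separate strains and cultures. Total counts were 5258139 to 6836827 per library, and all 60 members had at least 10 counts in every library.

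Tests used edgeR 4.0.16 (R 4.3.3): TMM normalization and the quasi-likelihood test on all 6209 genes, with the libraries of the compared groups only and no batch term. Calls required at least a 1.5-fold change and a p-value below 0.05 after Benjamini-Hochberg adjustment. Changes per culture and differences within batches used log2 of CPM plus 0.5. Means are given with the SD and fitted changes with the SE. The procedure was tested on simulated data. The alternatives were DESeq2 1.42.0, its size factors in edgeR, a filter of 10 counts in 3 libraries, no fold minimum, leaving out each replicate, a batch block, and a fit of all 34 libraries. A culture block was also run for the all-genotype fit and the comparisons of changes. Each genotype was left out in turn in the all-genotype and batch fits. The 32 replicate pairs differed by more than counting noise (chi-square per degree of freedom 4.82 to 77.5), so no library was counted as a duplicate. The labels give each replicate number as a batch, so numbers pair libraries. Correlations of deviations from group means had a median of 0.14 over 177 same-batch pairs, of which 96 exceeded 0.1, of 0.37 over the 80 of these sampled at the same time, of which 64 did, of 0.17 over the 17 pairs of 1 culture, and of -0.05 over 352 pairs from different batches.

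The members and lists were chosen with earlier results of these data known. The text names 8 genes in each comparison, singly or by the ends of their range (NOP1, CBF5, UTP10, PWP2, RRP5, NSR1, NOP7 and NOG1), and all called members where 5 or fewer were called, otherwise up to 6 called members in each direction, by size of change. Other genes named were chosen after their values were seen. Gene coordinates of the tables matched the RefSeq R64 annotation for all 60 members, and promoter sequences are from RefSeq R64.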

Additional observations from a re-analysis of the deposited data

Results flagged for a closer look

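UTP22, which encodes an SSU processome protein, was higher after galactose in all 3 WT cultures and lower in all 3 psh1Δ pGAL-3Flag-CSE4 cultures. The mean change per culture differed by -0.58 on the log2 scale. The test of the difference itself by edgeR's quasi-likelihood method gave -0.61 ± 0.19 (SE, adjusted p = 0.13) and did not pass the threshold. UTP22 departed most of the 60 members. Against WT at t2 it was the only 1 of the 60 members called lower, where 3.12% of all genes were. That share of the members was not above the share of all genes. The call was lost without batch 1, without batch 3 and with the batch as a block.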

How the results depend on the processing

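No called member changed direction under the alternatives run. The median over members changed sign without 1 replicate in 6 comparisons, in none of which it was tested: from -0.00 to 0.04 (psh1Δ at t2, without replicate 1), from -0.06 to 0.00 (htz1Δ at t2, without replicate 3), from 0.02 to -0.13 (change of pGAL-3Flag-CSE4, without replicate 2), from -0.15 to 0.03 (change of psh1Δ pGAL-3Flag-CSE4 against WT, without replicate 1), from -0.02 to 0.01 and 0.05 (pGAL-H3 at t2, without replicates 1 and 3) and from -0.03 to 0.05 (psh1Δ pGAL-3Flag-CSE4 at t0, without replicate 3). For WT t2 against t0, where 3 members were called, the count was 16 without a fold minimum, 5 with DESeq2 size factors, 6 with DESeq2, 5 with all 34 libraries fitted and 0 to 10 without each replicate. Of all genes, 2.61% were called higher without a fold minimum and 2.19% without replicate 3, the setting with 10 members. Over all genotypes the 18 calls became 60 without a fold minimum, 10 to 24 without each replicate and 6 to 23 without each genotype. Without a fold minimum 26.8% of all genes were called higher. The share was 2.48% without replicate 2, with 10 members, and 2.74% without pGAL-H3, with 6. For htz1Δ at t0 the 6 calls became 0 to 3 without each replicate, and at t2 the 0 calls became 8 without a fold minimum and 0 to 2 without each replicate. Without a fold minimum 8.49% of all genes were called lower and 7.36% higher at t2. The share called lower was 2.82% at t0 without replicate 3 and 3.56% at t2 without replicate 2. When psh1Δ pGAL-3Flag-CSE4 was set against psh1Δ for its galactose change, DESeq2 and the fit of all 34 libraries each called 2, and for the change of pGAL-H3 against WT DESeq2 called 1. The shares of tested genes called in the same direction were 1.53%, 2.21% and 0.168%. Without a fold minimum batch 3 gave 17 calls at t0 and 3 in the change. Of all genes, 18.1% were then called higher and 19.7% lower at t0, and 9.65% higher and 9.57% lower in the change. For pGAL-H3 against WT at t0 there were 11 calls with DESeq2, 1 with the low-count filter, 0 to 1 without each replicate and 9 with all 34 libraries. DESeq2 called 0.734% of the genes it tested lower. For psh1Δ pGAL-3Flag-CSE4 against WT at t2 there were 4 without a fold minimum and 0 to 8 without each replicate. Of all genes, 6.62% were called lower without a fold minimum and 4.8% without replicate 2, the setting with 8 members. With the batch as a replicate block the count went from 0 to 9 in pGAL-H3 at t0 (0.741% of all genes called lower) and from 1 to 0 in psh1Δ pGAL-3Flag-CSE4 at t2, and no other count moved by over 1.5 times. Counts given without a share of all genes are not set against that background. The cause of these shifts was not tested, beyond that fewer libraries enter the fits without a replicate. Each group held 2 or 3 cultures, and each member had at least 113 counts in every library.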
